A study of Homo sapiens and Mus musculus with 19 samples.

Results

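The SR splicing factor genes SRSF1, SRSF2, SRSF3, SRSF4, SRSF5, SRSF6, SRSF7, SRSF9, SRSF10 and SRSF11 were followed in chromatin-associated RNA (caRNA) of mouse embryonic stem (mES) cells and of K562 cells, a human myeloid leukaemia line. The genes were chosen by name, as 10 of 54446 genes in the mouse tables and 10 of 58721 in the human tables. caRNA is the RNA that stays with the chromatin pellet when cells are fractionated, so it is rich in transcripts still being made or spliced. The mES cells received either siControl, a control siRNA, or siNsun2, an siRNA against Nsun2, which encodes an RNA 5-methylcytosine methyltransferase, with 3 libraries each. K562 cells were TET2 WT or TET2 KO, TET2 being a dioxygenase that oxidises 5-methylcytosine, and each genotype was labelled as carrying a control hairpin (shControl) or a hairpin against MBD6 (shMBD6), a methyl-CpG-binding-domain protein gene, which gave 4 groups of 3 libraries, called WT shControl, WT shMBD6, KO shControl and KO shMBD6 after the TET2 genotype. The sources disagree on the knock-down: the study's sample sheet lists the K562 caRNA samples as siNC and siMBD6, names of siRNAs, so whether MBD6 was targeted by a stable hairpin or a transient siRNA is not settled, and hairpin is used here as the labels use it. The mES cells were grown with LIF and 2 inhibitors in serum and were passaged off feeder cells before use; per the labels the shControl and shMBD6 K562 cells were kept in puromycin, and the TET2 KO line had been made in earlier work. The study describes its genome-wide data as coming from 3 biological replicates. The labels do not say whether the 3 libraries of a group came from separate cultures, so the p-values measure the spread between these libraries, which may be partly technical.

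SR proteins bind exons and introns through RNA-recognition motifs and recruit the splicing machinery through tails rich in arginine and serine, which kinases such as the SRPK and CLK families phosphorylate. Many SR genes limit their own output through alternative exons or retained introns that send the transcript to nonsense-mediated decay (NMD) or keep it in the nucleus, so a chromatin fraction holds both productive and unproductive transcripts. The annotation showed this feature of the genes: all 10 human genes had at least 1 transcript annotated as an NMD substrate and 9 of 10 had a retained-intron transcript, against 44.3% and 54.8% of the 16267 protein-coding genes tested. In mouse, 9 of 10 and 8 of 10 did, against 23.7% and 47.3% of 18588. The genes are also compact, with a median span of 13914.5 bases in human and 6805.5 in mouse, where the medians of all tested coding genes were 35879 and 21931.5. Gene-level counts do not separate the transcript types.

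Promoter sequences of 3 human members are shown because the members mostly moved together in K562 cells while SRSF5 did not. They are the 250 bases before the RefSeq transcription start, in build GRCh38.p14, which matched 9 of the 10 human members. Capitals mark matches on either strand to TATAAA (the TATA box), CCAAT (the CCAAT box), GGGCGG (the GC box) and CCGGAAG (a core ETS site). SRSF3 is shown as the member with a TATA box, SRSF7 as one of the members that moved furthest, and SRSF5 as the exception.
SRSF3 (chr6:36594112-36594361, plus strand): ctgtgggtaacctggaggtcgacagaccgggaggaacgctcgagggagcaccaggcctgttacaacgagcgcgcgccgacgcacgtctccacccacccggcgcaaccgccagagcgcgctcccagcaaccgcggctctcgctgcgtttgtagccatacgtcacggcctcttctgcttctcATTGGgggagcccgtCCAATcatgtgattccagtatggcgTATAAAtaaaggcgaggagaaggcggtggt
SRSF5 (chr14:69766892-69767141, plus strand): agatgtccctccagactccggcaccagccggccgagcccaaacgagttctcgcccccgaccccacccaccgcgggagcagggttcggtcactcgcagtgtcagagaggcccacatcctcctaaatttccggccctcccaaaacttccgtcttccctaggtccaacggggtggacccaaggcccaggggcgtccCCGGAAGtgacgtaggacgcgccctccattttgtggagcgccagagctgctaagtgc
SRSF7 (chr2:38751495-38751744, minus strand): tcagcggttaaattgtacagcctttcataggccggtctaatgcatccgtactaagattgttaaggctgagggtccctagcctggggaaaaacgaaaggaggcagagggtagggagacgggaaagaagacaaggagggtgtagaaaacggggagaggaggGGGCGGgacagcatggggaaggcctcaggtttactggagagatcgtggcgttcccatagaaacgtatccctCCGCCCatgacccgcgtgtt

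TATAAA was found in 1 of the 9 member promoters, SRSF3, where it began 30 bases before the start, and in 10.7% of all 35116 windows of the same length. CCAAT was found only in SRSF3 among the members, and in 32% of all windows. GGGCGG was found in SRSF4, SRSF6 and SRSF7, and in 42.6% of all windows. CCGGAAG was found in SRSF4 and SRSF5, and in 8.52% of all windows. TGACGTCA (the cAMP response element) and AAGATGGC (a YY1 site) were in no member promoter and in 1.65% and 1.36% of all windows. None of these motifs was present in all the other member promoters while absent from that of SRSF5.

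The libraries held 52158403 to 102070223 gene-assigned reads in K562 cells and 58078323 to 66832780 in mES cells. Nsun2 was lower in siNsun2 libraries (102.5 ± 3.55 CPM against 129 ± 3.45, SD, n = 3, where CPM is the count scaled by library size and TMM, the usual depth-scaled unit of read counts). MBD6 was lower in WT shMBD6 (28.0 ± 2.71 CPM) than in WT shControl (41.5 ± 2.55), but in TET2 KO cells it was 34.4 ± 3.86 under shMBD6 and 30.3 ± 0.750 under shControl (adjusted p = 0.0574), which goes against the label. TET2 itself was 129 ± 2.23 CPM in KO shControl and 121 ± 2.59 in WT shControl, and gene-level reads cannot show where the gene was cut. TET2 was 121.5 ± 4.07 in WT shMBD6 and lowest in KO shMBD6, at 94.8 ± 5.28 (log2 change -0.44 against KO shControl, edgeR adjusted p = 7.24e-11). MBD6 was also lower in KO shControl than in WT shControl (log2 change -0.46, edgeR adjusted p = 6.5e-06). Whether the labels of the TET2 KO groups were exchanged was not tested. The comparisons of TET2 KO with WT under either hairpin, the hairpin effect in KO and the interaction given below all depend on those labels. The groups are therefore named as the libraries were labelled. Of 8 embryonic stem cell markers, Sox2 was at 0 and the summed level was 1743 to 1771 CPM in siControl and 1337 to 1372 in siNsun2, beside 36.1 to 37.7 and 34.4 to 36.5 for 8 feeder fibroblast markers. The labels call K562 a lymphoblast cell, yet 8 lymphoid markers summed to 3.03 to 8.09 CPM over all 12 libraries, with MS4A1 at 0 in both TET2 KO groups. Of 8 K562 markers, HBG2 was at 0 and HBZ had at most 0.136 CPM in any group mean, so the line was recognised by GATA1, TAL1, LMO2 and KLF1.

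SRSF1, the founding member of the family, could be read in mouse only. In K562 libraries it had 3 to 30 reads, and all but 100 bases of its annotated span (GRCh38, chr17:58000919-58007346, minus strand) lie inside the same-strand gene ENSG00000266086 (chr17:57989038-58007246), to which 4924 to 10699 reads were assigned per library. The tables keep a closing line of ambiguous reads, where HTSeq in its default mode puts reads that fall in both genes, but the counting mode is not stated, and its part in the low count was not tested. No level or change of human SRSF1 is therefore given, and 9 human members remained. Mouse Srsf1 has no same-strand overlap in the annotation and had 11055 to 12600 reads per library. The other members had 1310 to 35417 reads per library in K562 cells and 604 to 11652 in mES cells. SRSF2 lies opposite MFSD11 and mouse Srsf2 opposite Mettl23 and Mfsd11, and SRSF9 opposite DYNLL1 and GATC, while mouse Srsf1 and Srsf4 lie opposite Gm11508 and Gm12992; whether strand was used in counting is not given in the sources used here, so reads of these pairs may be mixed. The annotation also extends SRSF9 over NRAV on its own strand, which had 191 to 452 reads per library.

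Levels between members were compared as CPM per kb of merged exons. In siControl mES cells Srsf5 was highest at 44.1 ± 0.369 CPM per kb and Srsf9 lowest at 6.66 ± 0.177. Between them stood Srsf7 (35.3), Srsf1 (34.9) and Srsf4 (34.5), whose libraries overlapped with their neighbours, then Srsf2 (31.0), Srsf10 (25.5), Srsf3 (23.4), Srsf11 (21.5) and Srsf6 (18.4), which did not. In WT shControl K562 cells the order began with SRSF11 (40.3 ± 0.417) and SRSF4 (38.1 ± 1.04), went on through SRSF2 (29.2), SRSF7 (23.6), SRSF5 (20.0), SRSF6 (18.6), SRSF10 (15.5) and SRSF3 (13.3), and ended with SRSF9 (8.40 ± 0.182); no 2 neighbours in that order overlapped. Per kb of exon SRSF9 was thus lowest in both cell types, while SRSF5 stood 1st of 10 in mES cells and 5th of 9 in K562 cells. These ranks rest on annotated exon lengths that differ between the species, 5357 bases for SRSF5 and 3988 for Srsf5. Divided by annotated gene span instead, the order in WT shControl changed. SRSF2 then stood highest at 27.0 CPM per kb, SRSF4 had 9.81, SRSF11 7.20 and SRSF5 2.37, with SRSF9 still lowest at 0.969. The annotated spans of SRSF5 and SRSF9 are 45106 and 34275 bases, against 4864 and 8077 from the RefSeq start. Their values per kb of span would be higher with the RefSeq starts. In siControl Srsf5 (35.2) and Srsf9 (1.86) kept the ends of the order, while Srsf4 had 4.37. Which length fits the counts is not known, since the feature type counted (exon or gene) is not given. Summed, the 9 readable members took 0.140% ± 0.00125 of gene-assigned reads in WT shControl, 0.112% ± 0.00107 in WT shMBD6, 0.1003% ± 0.000913 in KO shControl and 0.126% ± 0.00182 in KO shMBD6 (SD, n = 3), and no library of one group reached the range of another. In mES cells the 10 members took 0.128% ± 0.000959 in siControl and 0.128% ± 0.000914 in siNsun2, with overlapping libraries. In bulk RNA, fewer cells of a type and less RNA per cell cannot be told apart.

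TET2 KO against WT under the control hairpin was the first K562 comparison, and all 9 readable members were called lower in KO shControl. Of the 26023 genes tested, 22.3% were called lower. The labels name no other TET2 KO line, so the genotype and other differences between the WT and KO lines cannot be told apart. SRSF2, a nuclear speckle protein that binds enhancers within exons, had 86.3, 85.4 and 88.6 CPM in WT shControl and 56.1, 50.7 and 55.8 in KO shControl. Every TET2 KO library was below every WT library, and the log2 change was -0.68 ± 0.05 (SE; adjusted p = 9.27e-13). SRSF5, first found as an insulin-induced gene, had 107.5, 109.6 and 103.6 CPM in WT and 68.7, 71.4 and 70.5 in KO. Its groups were also apart, with a log2 change of -0.61 ± 0.04 (adjusted p = 7.18e-14).

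SRSF7, an RNA-export adaptor that carries a zinc knuckle, followed with a log2 change of -0.46 ± 0.05. The changes of SRSF10, SRSF9, SRSF3, SRSF4 and SRSF6 lay between -0.33 and -0.28. SRSF11, a more distant relative of the other members, moved least: it had 339, 339.7 and 345 CPM in WT and 308, 315 and 323 in KO, a log2 change of -0.11 ± 0.03 (adjusted p = 0.00384). The groups of all 9 members were apart, as were those of 56.1% of all genes tested. Their median log2 change was -0.32 (-0.31 with SRSF1 among the 10), beside -0.05 for all genes tested and 0.04 for the 5959 genes whose log2 CPM averaged 5 or more. Of these 5959 highly expressed genes, 33.1% were called lower. The call of all 9 stayed lower under the 3 alternative scalings.

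**Figure D1:**
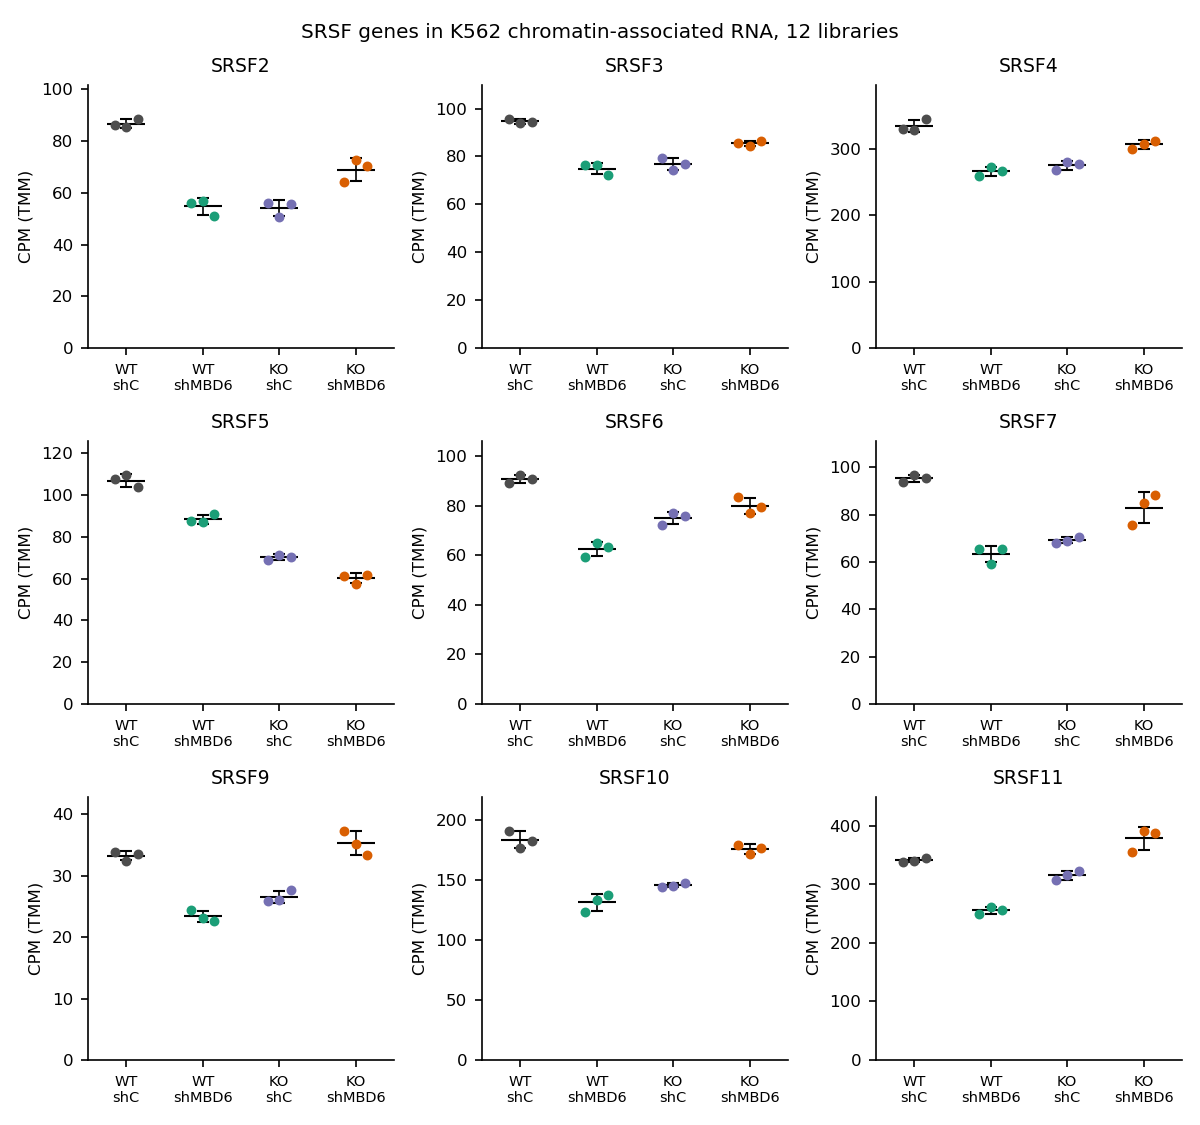
CPM of the 9 readable SRSF genes (y axes, TMM-scaled, starting at 0) in the 12 K562 libraries, by labelled group (x axes: WT or KO for TET2; shC, shControl). Points are libraries, and the bar with its error bar is the mean ± SD, n = 3; SRSF5 falls from 106.9 to 60.3 across the 4 groups, while the other members are low in both middle groups.

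Under the MBD6 hairpin in TET2 WT cells the same 9 members were called lower than under shControl, against 24.7% of all genes called lower. Of the highly expressed genes, 59.3% were called lower. SRSF2 fell again by the most, to 56.2, 57.0 and 51.2 CPM, a log2 change of -0.66 ± 0.05 (adjusted p = 3.03e-12). SRSF7 went from 93.6, 96.8 and 95.6 CPM to 65.5, 59.4 and 65.5, a log2 change of -0.59 ± 0.05 (adjusted p = 1.23e-11). SRSF6, which binds enhancers within exons, changed by -0.54 ± 0.05. SRSF9 changed by -0.51 ± 0.07, SRSF10 by -0.48 ± 0.04 and SRSF11 by -0.42 ± 0.03. SRSF3 and SRSF4 changed by -0.34 ± 0.04 and -0.33 ± 0.03.

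SRSF5 moved least here, at 87.4, 86.9 and 90.7 CPM under shMBD6, a log2 change of -0.28 ± 0.04 (adjusted p = 2.29e-06). The libraries of the 2 groups were apart for all 9 members, and for 57.7% of all genes. The median of the 9 was -0.48 (-0.45 with SRSF1), beside 0.10 for all genes and -0.17 for the highly expressed genes. This comparison shares its WT shControl libraries with the one before.

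In cells labelled TET2 KO the MBD6 hairpin went with higher levels: 7 of the 9 members were called higher under shMBD6 than under shControl, against 15.7% of all genes called higher. Of the highly expressed genes, 32% were called higher. SRSF9, a close relative of SRSF1, rose from 25.9, 26.0 and 27.7 CPM to 37.3, 35.1 and 33.4, a log2 change of 0.41 ± 0.07 (adjusted p = 8.21e-06). SRSF2 rose to 64.2, 72.6 and 70.3 CPM, a log2 change of 0.35 ± 0.05 (adjusted p = 2.56e-06). SRSF10, which can act as a general splicing repressor when it is dephosphorylated, rose from 144, 145 and 148 CPM to 179, 172 and 177, a log2 change of 0.27 ± 0.04 (adjusted p = 2.84e-07). SRSF7 and SRSF11 rose by 0.26, and SRSF4 and SRSF3 by 0.16 and 0.15.

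SRSF6 had a log2 change of 0.09 ± 0.05 and did not pass the test (adjusted p = 0.116), although 3 alternatives called it higher: at 0.22 with libraries scaled by total gene counts, at 0.14 with no filter on low counts (adjusted p = 0.019) and at 0.14 in fits of only the groups compared (adjusted p = 0.0227). SRSF5 alone was called lower, with 61.4, 57.5 and 62.0 CPM under shMBD6, a log2 change of -0.22 ± 0.04 (adjusted p = 0.000118). Of all genes 20.6% were called lower, and of the highly expressed ones 39%. With total gene counts its change was -0.09 and was no longer called (adjusted p = 0.082). Groups were apart for all 9, as for 43.8% of all genes. The median of the 9 was 0.26, beside -0.07 for all genes and -0.02 for the highly expressed ones. MBD6 itself was not lower in these libraries, as given above.

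Between the genotypes under shMBD6, 8 members were called higher in TET2 KO, against 30.1% of all genes, and SRSF5 was called lower, against 28.5%. Of the highly expressed genes, 64% were called higher and 17.5% lower. The largest rises were those of SRSF9 (log2 change 0.59 ± 0.07) and SRSF11 (0.56 ± 0.03, from 249.6, 261 and 257 CPM to 355, 391 and 388). SRSF10, SRSF7, SRSF6 and SRSF2 rose by 0.42, 0.39, 0.35 and 0.33. SRSF4 and SRSF3 rose by 0.20 and 0.19, but with the scaling taken from highly expressed genes alone these became -0.01 and -0.03 and were not called, and SRSF2, at 0.12, was not called either. SRSF3 was not called under any of the 3 alternative scalings. SRSF5 changed by -0.55 ± 0.04 (adjusted p = 1.1e-12) and was called lower under each scaling. The median of the highly expressed genes was 0.22 in this comparison, so that 6 of the 9 members lay above it and 3 below. Groups were apart for all 9 members and for 64% of all genes.

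The test of the difference between both hairpin effects, the effect in TET2 KO minus that in TET2 WT, called 8 of the 9 readable members higher, against 23.9% of all genes. Of the highly expressed genes, it called 48.8% higher. SRSF2 had the largest difference, 1.01 ± 0.08 (SE; adjusted p = 3.02e-13), followed by SRSF9 at 0.92 ± 0.10 and SRSF7 at 0.85 ± 0.07. SRSF10, SRSF11 and SRSF6 differed by 0.76 ± 0.05, 0.68 ± 0.05 and 0.63 ± 0.06, and SRSF3 and SRSF4 by 0.49 ± 0.06 and 0.49 ± 0.04. All 8 were called higher under the 3 other scalings and whichever library was left out. SRSF5 had a difference of 0.06 ± 0.06 (adjusted p = 0.472), and its sign changed with the scaling. Its level was lower in TET2 KO than in WT under either hairpin (log2 changes of -0.61 and -0.55), and lower under shMBD6 than under shControl in either genotype (-0.28 and -0.22), the last of which was not called with total gene counts.

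**Figure D2:**
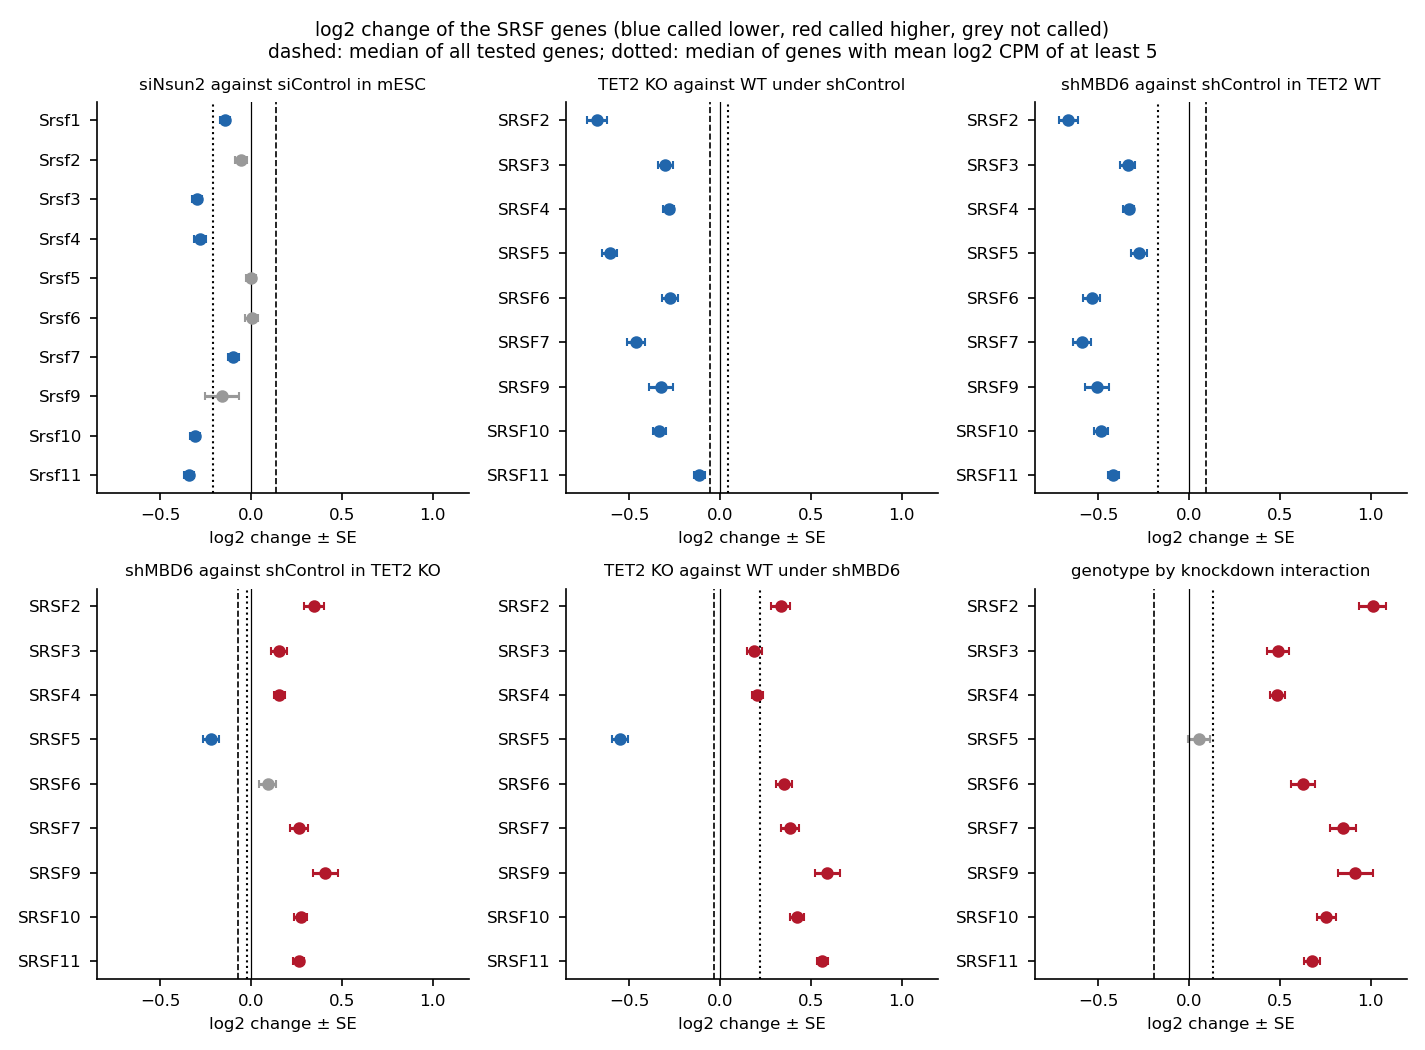
log2 change ± SE (x axes) of each readable SRSF gene (y axes) in the 6 comparisons, from the edgeR fit across all genes. Blue points were called lower and red points higher at an adjusted p under 0.05, grey points were not called, and the dashed and dotted lines mark the medians of all tested genes and of highly expressed genes; the K562 members lie left of both lines in the panels for TET2 KO under shControl and shMBD6 in TET2 WT, and 8 of 9 lie right of both in the interaction.

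Several library-wide measures moved with the same 4 groups, and their part in the result was not tested. Mitochondrial transcripts took 0.0220 to 0.0238% of reads in WT shControl and 0.0233 to 0.0273% in KO shMBD6, but 0.0405 to 0.0499% in WT shMBD6 and 0.0483 to 0.0540% in KO shControl. Short genes as a class moved in the same directions: among highly expressed coding genes, the 153 spanning up to 10 kb had a median log2 change of -0.25 in TET2 KO under shControl, -0.39 with shMBD6 in WT and 0.24 with shMBD6 in KO, where the 1745 over 100 kb had 0.18, -0.08 and -0.20. For the interaction these medians were 0.62 and -0.13. SRSF2 and SRSF7, both under 10 kb, went beyond the median of their class in all of these comparisons. SRSF6, also under 10 kb, had 0.63 against 0.62 in the interaction but 0.09 against 0.24 with shMBD6 in KO. SRSF3, in the class of 10 to 20 kb, had -0.30 against -0.18 in TET2 KO under shControl. It had -0.34 against -0.33 with shMBD6 in WT, 0.15 against 0.18 in KO and 0.49 against 0.49 in the interaction. SRSF10 of that class, and SRSF4, SRSF9 and SRSF11 of the class of 20 to 50 kb, went beyond their class medians. SRSF5 went against its class under shMBD6 in KO; its annotated span of 45106 bases comes from distant first exons, and from the RefSeq start it spans 4864 bases. The K562 markers summed to 455.6 to 472 CPM in WT shControl, 259.8 to 279.9 in WT shMBD6, 183 to 197 in KO shControl and 268 to 278 in KO shMBD6. LMO2 made up much of the change in this sum, with means of 246.8, 92.8, 54.7 and 100.5 CPM in that order. TAL1 had 132.7, 126.6, 92.2 and 109.9, and so moved little in WT shMBD6. GATA1, an erythroid transcription factor, had means of 54.2, 35.3, 34.9 and 46.4 CPM.

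**Figure D3:**
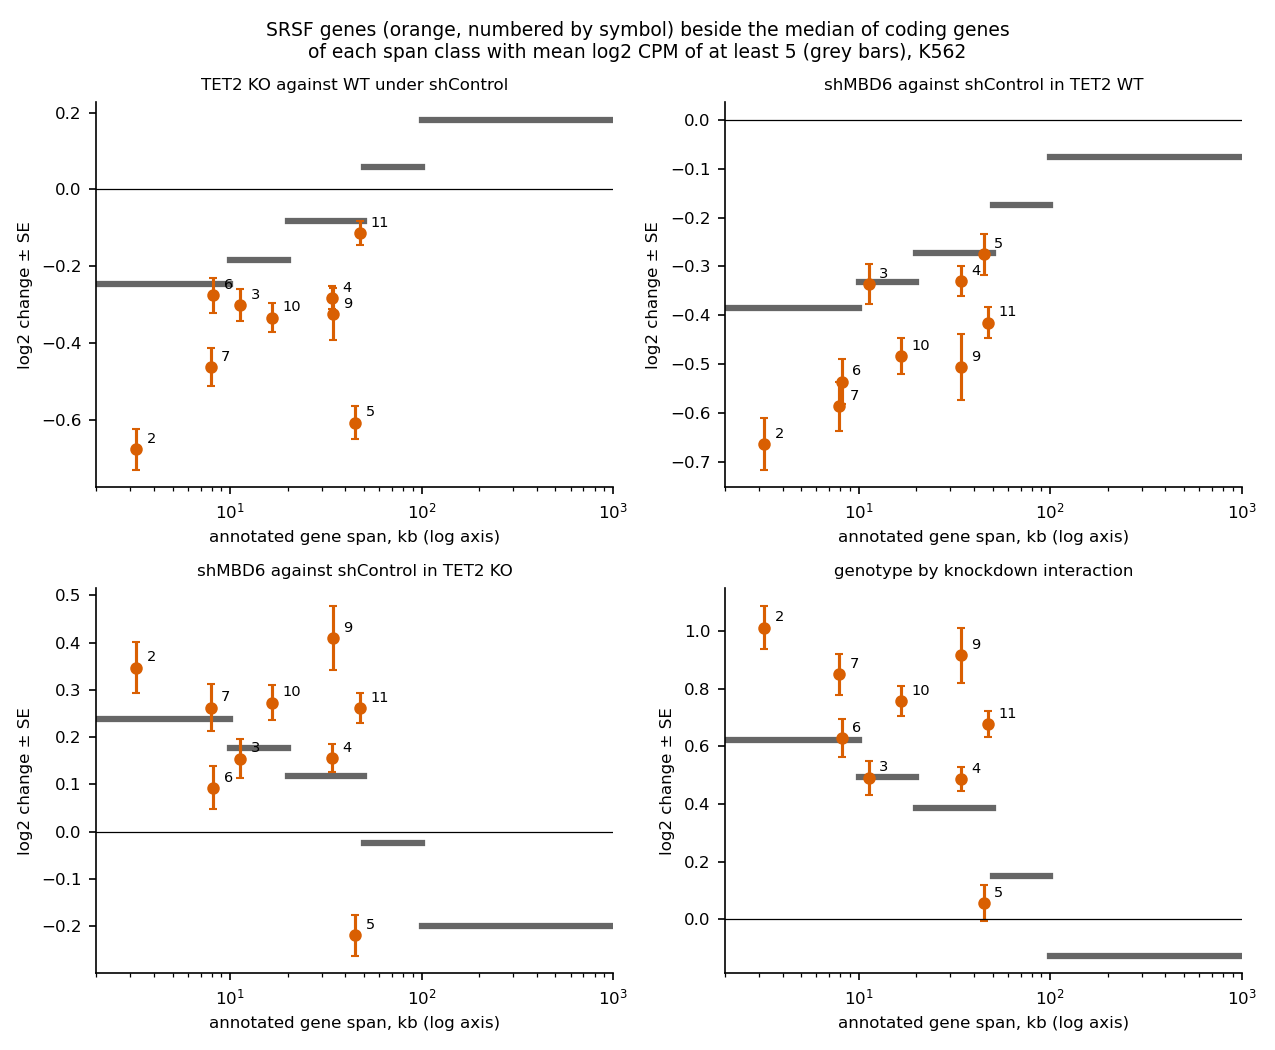
log2 change ± SE of the 9 readable SRSF genes (orange, numbered by symbol, y axes) against annotated gene span in kb (x axes, log scale), with grey bars for the median of the highly expressed coding genes of each span class; the outer classes are drawn to the edges of the axis. In the interaction the class medians fall from 0.62 to -0.13 as span grows, and SRSF2, SRSF9 and SRSF7 lie highest.

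Values of chromosomal neighbours were set beside those of the members. Within 5 Mb of SRSF5 (chr14:69726900-69772005) the 23 highly expressed coding genes had a median log2 change of -0.01 in TET2 KO under shControl and 0.11 under shMBD6, where SRSF5 itself had -0.61 and -0.55. Around SRSF2 (chr17:76734115-76737333) the 39 such genes had medians of 0.04 in TET2 KO under shControl and -0.04 for the interaction, where SRSF2 had -0.68 and 1.01. Around SRSF11 (chr1:70205682-70253052) the 14 neighbours had a median of 0.43 in TET2 KO under shMBD6, beside 0.56 for SRSF11. For the interaction the neighbour medians were 0.36 around SRSF3 and SRSF4, both at 0.49 themselves, and 0.31 around SRSF6, at 0.63. They were 0.29, 0.24, 0.20 and 0.19 around SRSF11, SRSF9, SRSF10 and SRSF7, which had 0.68, 0.92, 0.76 and 0.85. Around SRSF5, itself at 0.06, the median was 0.20.

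The genes whose centred profile over the 4 K562 groups was closest to the mean profile of the members, among 9702 candidates whose log2 CPM averaged 3 or more, were ZNF708, GTF3C5, GTPBP3, RHBDD3 and SLC1A5, at a root mean square difference of 0.01 log2 units over 4 group means. With SRSF1 left out of the profile they were RPL18, ALG6, USF1, IKZF5 and REEP4, none of which was among the first 5. Of the candidates, 1629 lay within 0.1 log2 units of the profile of the 10 members and 1359 of that of the 9.

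Other splicing genes were read from 5 lists, whose counts stand beside 23.5% of all genes called higher and 22.3% lower in TET2 KO under shControl, 17.7% and 24.7% with shMBD6 in WT, 15.7% and 20.6% with shMBD6 in KO, and 23.9% and 25.5% in the interaction. Among the highly expressed genes these shares were 44% and 33.1%, 18.2% and 59.3%, 32% and 39%, and 48.8% and 30.6%. Of 25 core spliceosome genes, 16 were called lower in TET2 KO under shControl, 22 lower and 1 higher with shMBD6 in WT, 18 higher and 1 lower with shMBD6 in KO, and 21 higher and 2 lower in the interaction, with median log2 changes of -0.19, -0.35, 0.20 and 0.52, beside -0.05, 0.10, -0.07 and -0.19 for all genes tested. SNRPA, the U1 snRNP A protein gene, changed by -0.47, -0.62 and 0.69 in the first 3 comparisons and PRPF19, a component of the activated spliceosome, by -0.67 with shMBD6 in WT and 0.65 in KO. Of 20 tested hnRNP genes, 10 were lower and 5 higher in TET2 KO under shControl, 16 lower with shMBD6 in WT, and 11 higher and 3 lower with shMBD6 in KO. HNRNPAB changed by -0.59, -0.71 and 0.51, and HNRNPK by -0.71 with shMBD6 in WT and 0.57 in KO; HNRNPA0, an intronless gene, went the other way, by 0.52 in TET2 KO under shControl.

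The genes that regulate SR proteins moved in both directions. Of 9 genes, 8 for kinases and TNPO3 for the import receptor of SR proteins, 5 were higher and 2 lower in TET2 KO under shControl, 6 lower with shMBD6 in WT, and 1 higher and 4 lower with shMBD6 in KO. SRPK2, an SR protein kinase, rose by 0.65 ± 0.03 in TET2 KO under shControl, and CLK3 by 0.43 ± 0.06. DYRK1A, which also phosphorylates splicing factors, changed by -0.33 with shMBD6 in KO. Of 13 SR-related genes, 4 were higher and 4 lower, then 9 lower, then 3 higher and 4 lower in the same 3 comparisons; SRRM2, the large speckle scaffold gene, changed by 0.30 and -0.51 in the first and last of them, and SRSF8, a close relative of SRSF2, by -0.74 ± 0.16 with shMBD6 in WT. Of 9 tested NMD genes, 2 were higher and 4 lower, 1 higher and 8 lower, and 1 higher and 3 lower; SMG5 changed by -0.35, -0.49 and 0.25. Scaled by total gene counts, these splits were others: the regulators had 3 higher and 5 lower in TET2 KO under shControl, 1 higher and 3 lower with shMBD6 in WT, and 3 higher and 2 lower with shMBD6 in KO. The SR-related genes then had 1 higher and 8 lower, 3 higher and 6 lower, and 6 higher and 2 lower, and the NMD genes 1 higher and 6 lower, 1 higher and 5 lower, and 4 higher and 1 lower. The hnRNP genes had 2 higher and 14 lower, 13 lower, and 13 higher and 2 lower, and the spliceosome genes 24 lower, 1 higher and 18 lower, and 21 higher and 1 lower.

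Under shMBD6, TET2 KO against WT, 20 of 25 spliceosome, 17 of 20 hnRNP, 5 of 9 regulator, 9 of 13 SR-related and 6 of 9 NMD genes were called higher, and 2, 1, 1, 2 and 1 lower, against 30.1% of all genes higher and 28.5% lower and 64% higher among the highly expressed. Scaling by total gene counts left 17, 10, 4, 6 and 2 called higher and 2, 2, 3, 3 and 3 lower.

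In mES cells, the knock-down of Nsun2 addressed caRNA under depletion of an RNA methyltransferase, and 6 of the 10 members were called lower in siNsun2, against 24.3% of 27603 genes. By edgeR 0 members were called higher, also 0 at an unadjusted p under 0.05 and 0 by DESeq2, against 25.8% of all genes called higher. Srsf11 had 184, 184 and 177 CPM in siControl and 146.5, 141 and 144 in siNsun2, a log2 change of -0.34 ± 0.03 (adjusted p = 8.94e-19). Srsf10 had 176, 179 and 179.5 CPM in siControl and 143, 142.5 and 147 in siNsun2, a log2 change of -0.31 ± 0.03 (adjusted p = 8.5e-17). The libraries of the 2 groups were apart for both genes.

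Srsf3, the smallest SR protein and a factor in mRNA export, changed by -0.30 ± 0.03 and Srsf4, whose arginine-serine tail is long, by -0.28 ± 0.03. Srsf1 changed by -0.14 ± 0.03 and Srsf7 by -0.10 ± 0.03, the latter no longer called without siControl replicate 2 (-0.08, adjusted p = 0.073), without siNsun2 replicate 2 (-0.07, adjusted p = 0.0855) or with a minimum count of 50 (-0.04, adjusted p = 0.249). Srsf5 did not pass the test, at 174.5, 177 and 176 CPM against 173, 176 and 179. Srsf6 was also not called, at 88.5 ± 4.81 and 88.8 ± 1.46 CPM, nor were Srsf2 (log2 change -0.06 ± 0.03) and Srsf9 (-0.16 ± 0.09), whose groups were nevertheless apart. With DESeq2 size factors in edgeR both were called lower, Srsf2 by -0.12 (adjusted p = 0.0052) and Srsf9 by -0.22 (adjusted p = 0.0438), as they were by the DESeq2 Wald test (adjusted p = 0.00243 and 0.0339), which made 8 members lower instead of 6. Groups were apart for 8 of 10 members and for 56.7% of all genes.

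The direction in mES cells depended on the reference. The median log2 change was -0.15 for the members, 0.14 for all genes and -0.21 for the 5534 highly expressed genes, of which 4356 were called lower; 6 members lay above the last value and 4 below. Srsf3, Srsf4, Srsf10 and Srsf11 were called lower under all 4 scalings. With total gene counts, Srsf2, Srsf5, Srsf6 and Srsf7 were called higher instead, by 0.13, 0.18, 0.19 and 0.08, and with the scaling taken from highly expressed genes Srsf1 was too, by 0.07. Reads assigned to no counted feature took 19.6 to 20.2% of reads in siControl and 28.9 to 29.9% in siNsun2, whose part in the result was not tested. Whether these reads lay outside genes or in introns cannot be told, since the feature type counted is not given. The median change did not follow gene span here (-0.21 up to 10 kb and -0.18 over 100 kb).

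**Figure D4:**
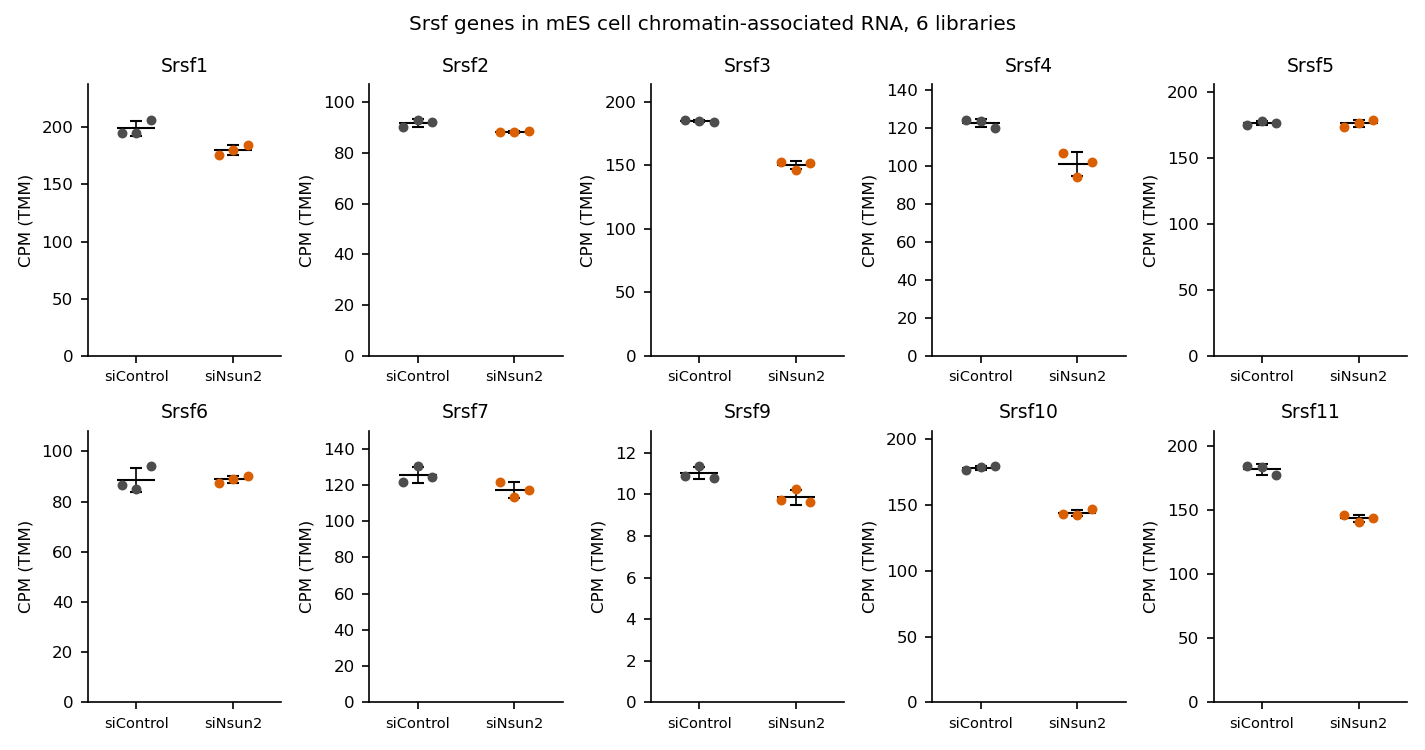
CPM of the 10 Srsf genes (y axes, TMM-scaled, starting at 0) in the 3 siControl and 3 siNsun2 libraries (x axes). Points are libraries and the bar with its error bar is the mean ± SD, n = 3; Srsf3, Srsf4, Srsf10 and Srsf11 sit lower in siNsun2 and Srsf5 and Srsf6 overlap.

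Of the other splicing lists, 11 of 12 SR-related, 7 of 9 regulator, 20 of 22 hnRNP, 20 of 25 spliceosome and 9 of 10 NMD genes were called lower, with 2 hnRNP genes called higher. Their median log2 changes were -0.22, -0.20, -0.21, -0.20 and -0.20, beside -0.21 for the highly expressed genes, 78.7% of which were called lower. Smg1, the kinase that phosphorylates UPF1 in NMD, changed by -0.50 ± 0.02, and Sf3b3, a subunit of the U2 snRNP, by -0.46 ± 0.02. Tra2a, an SR-related splicing activator, changed by -0.37 ± 0.02 and Dyrk1a by -0.30 ± 0.02. With total gene counts the numbers called lower were 5, 3, 8, 6 and 4, and 2, 2, 5, 3 and 1 genes were called higher.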

How the data were processed

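caRNA libraries of 6 mES cell and 12 K562 samples were analysed in 6 groups named from their titles; 1 further mES library, Pspc1 WT, entered no comparison. Per the labels and the study's methods, the authors trimmed reads with Trimmomatic 0.39, aligned them with HISAT2 2.2.1 to mm10 or hg38 and counted them per gene with HTSeq 0.12.4; the methods also name featureCounts for caRNA, but the deposited tables of raw read counts per gene end in the summary lines that HTSeq writes. The counting mode, feature type and strand setting are not given in the sources used here. The tables hold 0 spike-in lines, so changes are relative within each library. The closing lines of unassigned reads (13.1 to 29.9% assigned to no counted feature) were left out of library sizes and tests.

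Gene symbols, spans and overlaps came from GENCODE annotations of the same builds, of later releases than the authors used (99.9% of mouse and 99.2% of human IDs matched). Spans of SRSF5 and SRSF9 are longer there than in RefSeq. CPM were scaled by TMM and given as mean ± SD. Changes were tested for all genes that passed filterByExpr (minimum count 10) with the quasi-likelihood test of edgeR 4.0.16 in R 4.3.3, 1 fit per species over all groups; called means a Benjamini-Hochberg adjusted p under 0.05, and standard errors are the log2 change over the root of F. Alternatives were DESeq2 1.42.0 size factors and its Wald test, total gene counts, TMM on genes whose log2 CPM averaged 5 or more, no filter, a minimum count of 50, a replicate block, fits of only the groups compared, and each library left out. The scripts were tested on simulated data. Replicate libraries differed by more than sampling noise (chi-square per degree of freedom 3.87 to 14.1). An exact permutation test of 3 against 3 libraries cannot go below 0.1 and was not used.

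The members, the 5 other lists and the tests were chosen with earlier results of these data known. All members were named; from each other list, genes were named from the 2 with the largest called change and groups apart in each pairwise comparison; the 5 genes nearest the members' profile were named by root mean square difference, and Nsun2, TET2 and MBD6 as checks of the labels. GATA1 and the other markers come from marker lists. Promoter motifs were matched by letters alone.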

Additional observations from a re-analysis of the deposited data

Results flagged for a closer look

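The effect of the MBD6 hairpin differed between TET2 KO and TET2 WT cells, by the interaction test in edgeR, for 8 of 9 readable members: SRSF2 (1.01 on the log2 scale), SRSF9 (0.92), SRSF7 (0.85), SRSF10 (0.76), SRSF11 (0.68), SRSF6 (0.63), SRSF3 (0.49) and SRSF4 (0.49). In TET2 WT all 3 shMBD6 libraries lay below all 3 shControl libraries for each of the 8, and in TET2 KO all 3 lay above. Groups were apart, in either direction, for 57.7% of all genes in TET2 WT and 43.8% in TET2 KO. SRSF6 was not called in TET2 KO (edgeR adjusted p = 0.116), where its nearest libraries had 77.2 CPM under shMBD6 and 77.0 under shControl. The interaction test called 23.9% of all genes and 48.8% of the highly expressed genes higher. MBD6 itself did not follow its label in TET2 KO.

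The Pspc1 WT mES cell library, which entered no comparison, held reads of all 10 members, which took 0.174% of its 91990658 gene-assigned reads. Its levels were 274 CPM for Srsf5, 260.1 for Srsf10, 228 for Srsf3, 217 for Srsf11, 179 for Srsf1, 168 for Srsf7, 142 for Srsf6, 132.5 for Srsf4, 126 for Srsf2 and 9.84 for Srsf9, on total gene counts.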

How the results depend on the processing

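In K562 cells all 9 readable members kept their call in TET2 KO under shControl and with shMBD6 in WT under every alternative, and 8 kept theirs in the interaction. Leaving out 1 library moved the median of the members between -0.50 and -0.42 for shMBD6 in WT and between 0.63 and 0.74 for the interaction. With total gene counts the medians were -0.49 for TET2 KO under shControl, -0.35 for shMBD6 in WT, 0.39 for shMBD6 in KO (where 0 members were then called lower, since SRSF5 lost its call) and 0.22 for TET2 KO under shMBD6. With TMM on highly expressed genes they were -0.37, -0.28, 0.15 for TET2 KO under shMBD6 (5 members called higher) and 0.56 for the interaction, and SRSF3, SRSF4 and the interaction of SRSF5 turned to -0.028, -0.013 and -0.10. With DESeq2 size factors, and with the DESeq2 Wald test, medians were -0.34 for shMBD6 in WT, 0.25 for TET2 KO under shMBD6 and 0.62 for the interaction, and that of SRSF5 was -0.042. Without a filter, shMBD6 in WT gave -0.34, shMBD6 in KO 0.31 and TET2 KO under shMBD6 0.31; with a minimum count of 50 the last was 0.28 and the interaction 0.62; in fits of only the groups compared, shMBD6 in KO gave 0.31 and TET2 KO under shMBD6 0.30. These medians count SRSF1, whose few reads vary with the setting. The median of all genes moved by over 0.1 with the scaling, from -0.05 to -0.23 with total gene counts for TET2 KO under shControl.

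In mES cells the median of the members was -0.21 with DESeq2 size factors or the Wald test (8 members called lower), -0.093 with a minimum count of 50 (1 member called higher), 0.031 with total gene counts (4 called higher) and 0.059 with TMM on highly expressed genes (5 called higher), while the median of all genes went from 0.14 to 0.07, 0.32 and 0.34 under DESeq2 size factors and these last 2 scalings. With total gene counts Srsf1, Srsf2, Srsf5, Srsf7 and Srsf9 turned to 0.038, 0.13, 0.18, 0.085 and 0.023, and with TMM on highly expressed genes to 0.066, 0.15, 0.21, 0.11 and 0.051. Srsf6 turned to -0.056 with DESeq2 and its size factors and -0.011 without a filter, and Srsf2 and Srsf5 to 0.0019 and 0.057 with a minimum count of 50. Leaving out 1 library, Srsf6 ranged from -0.032 to 0.041 and Srsf5 from -0.017 to 0.0055.

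Without the 10 highest genes in the total, the members took 0.148% in siControl, 0.147% in siNsun2, and 0.146%, 0.117%, 0.105% and 0.131% in the K562 groups, in the order used above. Per kb of gene span, the highest over the lowest member was 18.9 and 21.0 times in siControl and siNsun2 and 27.8, 24.9, 21.8 and 20.8 times in the K562 groups, against 6.63, 7.39, 4.80, 5.13, 5.55 and 5.01 times per kb of exon. The K562 ratios per kb of span rest on the annotated span of SRSF9, the lowest member, of 34275 bases. From the RefSeq start SRSF9 spans 8077 bases, which would make these ratios smaller. Leaving SRSF1 out was chosen after seeing the data. With the replicate number as a block the members called were 6 lower in mES cells and 9, 9, 1, 1 and 0 lower in the 5 K562 comparisons, with no call changed; libraries of the same number did not deviate together (r from -0.02 to 0.03), so the numbers name and do not pair samples.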
